A study of Mus musculus with 8 samples.

Results

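The 9 genes described here belong to the BCL2 family, whose proteins decide at the mitochondrion whether a cell lives or dies. They were chosen by name, with no measured value in the rule, from the 32285 genes of the matrices. Earlier results of these data were known when they were chosen. The pro-survival members were Bcl2, Bcl2l1 (which encodes BCL-XL), Mcl1 and the 3 near-identical copies Bcl2a1a, Bcl2a1b and Bcl2a1d, which encode the A1 proteins. The death-promoting members were Bcl2l11 (BIM), Bid and Bak1. Their unique molecular identifiers (UMIs, each standing for 1 captured mRNA molecule) were summed by library, by genotype hashtag and by cell class, and all 9 genes had at least 178 UMIs in every group.

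Pro-survival BCL2 proteins hold the effectors BAX and BAK in check and capture BH3-only proteins such as BIM and BID, which are made or activated under stress. When the capture is overcome, BAK and BAX open the outer mitochondrial membrane, cytochrome c escapes and caspases are activated. Among myeloid cells, neutrophils are short-lived and are known to need MCL1, and A1 is an NF-κB target that is switched on by inflammatory signals.

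Single-cell mRNA and hashtag libraries were made from CD45+CD11b+Ly6Chi cells, the gate used for monocytic myeloid-derived suppressor cells, sorted from subcutaneous tumors of the MC38 colon carcinoma line, or from blood of mice that carried such tumors. The tumors had received 1 local dose of 20 Gy (IR) and cells were taken 3 days later, or they had received none (control). Each of the 4 matrices (tumor control, tumor IR, blood control and blood IR) mixed cells of 2 genotypes on a C57BL/6J background, told apart by hashtag. WT cells, with hashtag B0301, came from Ythdf2 fl/fl mice without Cre. The cKO cells, with hashtag B0302, came from Ythdf2 fl/fl mice that also carried Lyz Cre+, in which the lysozyme locus drives Cre in myeloid cells, and YTHDF2 itself is a reader protein that brings about the decay of m6A-modified mRNA. Both genotypes therefore carried the floxed allele, and only cKO cells carried Cre. A cell was assigned with at least 20 hashtag UMIs, as WT where B0301 was at least as high as B0302 and as cKO where B0302 was at least 4 times B0301. Cells of several young adult mice were pooled before the libraries were made, so each of the 8 groups is 1 pool, with no replicate, and no p-value or standard error can be given. Intervals below are 95% intervals that cover counting error only, not the spread between mice.

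Depth was similar between groups, with 18867849 to 24699276 gene UMIs over 2142 to 4625 cells each, and 27447 cells in all. The median cell of a library held 6076 or 7292.5 UMIs in tumors and 2988.5 or 3027 in blood. Ythdf2 went against the labels: it stood at 32.9 to 55.4 CPM (the UMIs of a gene scaled to all gene UMIs of the cells summed) in cells labelled WT and at 303 to 374 CPM in cells labelled cKO. The libraries read the 3′ end of transcripts, and the exons that the deletion removes are not given in the sources used here, so these counts do not check the deletion. Lyz2, the gene at the Cre locus, did separate the labels, with 5617 to 14141 CPM in WT and 81.3 to 138 CPM in cKO. Genotypes are therefore given below as labelled. Of barcodes with at least 500 UMIs, 12558 occurred in both tumor matrices, and in barcodes with hashtags in the control matrix alone the other matrix held a median of 0.454 times their UMIs. The hashtags placed nearly all of them in 1 matrix, and only 32 kept cells shared a barcode between the tumor libraries. Without the barcodes that kept cells of different libraries shared, no member count past the limit changed. That step left 2511 of 2526 WT cells in control tumors, so it does not address the UMIs held by both tumor matrices.

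Of blood cells, 66.9% to 71.0% clustered as neutrophil-like and 13.8% to 18.6% as monocyte-like, although the gate was set on high Ly6C. Tumor cells were macrophage-like (18.389% to 49.6%), monocyte-like (0.840% to 17.9%) and several smaller or unnamed kinds. The 13 neutrophil markers summed to 373 to 2288 CPM in tumor groups and 70398 to 106785 CPM in blood groups. The 14 macrophage markers summed to 7831 to 10607 CPM in tumor groups and 495 to 976 CPM in blood groups. A sum over a group cannot tell fewer cells of a type from less RNA per cell, so group values are followed by values within classes.

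The Bcl2a1 copies carry the largest differences among the 9 members, and their near identity limits how they can be read. On the reference annotation (mm10), Bcl2a1d lies on chromosome 9 at 88723285-88731914 on the minus strand, Bcl2a1a at 88956900-88962419 and Bcl2a1b at 89199209-89207827 on the plus strand. Their annotated transcripts were 98.2% to 99.1% identical. In the last 300 bases, which 3′ libraries read, 35.5% of the 50-base words of Bcl2a1a, 25.9% of those of Bcl2a1b and 5.18% of those of Bcl2a1d occurred in no other copy. Counts of a single copy are therefore uncertain, and their sum is given beside them. The promoters, too, are nearly the same. The stretches below (RefSeq, GRCm38.p6, 133 bases each, 5′ to 3′ on the strand of the gene) set the copies side by side. Their part in the counts was not tested. Capitals mark the word TGANTCA and the word TGACG, a half-site of the cAMP response element. TGANTCA is a loosened form of the word bound by AP-1 factors, with any base at N, and it reads TGAATCA in all 3 copies. Bcl2a1a is at chr9:88956780-88956912 (+), Bcl2a1b at chr9:89199089-89199221 (+) and Bcl2a1d at chr9:88731852-88731984 (-).
Bcl2a1a: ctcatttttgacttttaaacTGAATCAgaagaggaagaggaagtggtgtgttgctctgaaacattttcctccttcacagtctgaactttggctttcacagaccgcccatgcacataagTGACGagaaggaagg
Bcl2a1b: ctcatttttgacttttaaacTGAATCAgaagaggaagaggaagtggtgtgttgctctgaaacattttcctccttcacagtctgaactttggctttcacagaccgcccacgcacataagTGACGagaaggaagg
Bcl2a1d: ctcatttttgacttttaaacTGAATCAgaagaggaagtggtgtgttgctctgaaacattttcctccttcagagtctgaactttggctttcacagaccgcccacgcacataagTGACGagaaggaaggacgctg
Bcl2a1a and Bcl2a1b matched at 132 of 133 aligned bases, Bcl2a1a and Bcl2a1d at 125 of 127, and Bcl2a1b and Bcl2a1d at 126 of 127. The words were searched on both strands, and they overlap no other searched word in these windows. TGANTCA begins 120, 164 and 114 bases before the RefSeq start of Bcl2a1a, Bcl2a1b and Bcl2a1d. These starts differ from the gene positions given above, which come from another annotation. By those positions each stretch runs into its gene, furthest in Bcl2a1d. Among the 12 promoters of the 9 members it was found in these 3 and in no other, while TGACG was found in these 3 and in those of Bcl2 and Mcl1. Of 32851 promoters of the same length, 7.81% held TGANTCA and 20.8% held TGACG. A word is a description of the letters and not a site.

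Tissue separated the members more than IR or genotype did. The summed Bcl2a1 copies stood at 951 CPM (938 to 964) in WT control tumors, 1302 (1288 to 1317) in cKO control tumors, 1032 (1018 to 1046) in WT IR tumors and 1226 (1212 to 1240) in cKO IR tumors. In blood they stood at 65.3 CPM (62.0 to 68.9) in WT control, 94.1 (89.8 to 98.5) in cKO control, 86.3 (82.5 to 90.3) in WT IR and 50.8 (47.6 to 54.1) in cKO IR. The 4 tumor groups lay above the 4 blood groups without overlap, and the ratio of each pair of neighbours in the order of the 8 had an interval that left out 0. The closest pair was WT IR and cKO control blood (0.12, 0.03 to 0.22), whose own intervals overlap. The log2 ratio of tumor over blood was 3.86 (3.78 to 3.94) in WT control, 3.79 (3.72 to 3.86) in cKO control, 3.58 (3.51 to 3.65) in WT IR and 4.59 (4.50 to 4.69) in cKO IR, up to 24.1-fold. Each copy showed this: Bcl2a1a differed by 2.71 to 3.76 on the log2 scale, Bcl2a1b by 3.86 to 4.996 and Bcl2a1d by 3.38 to 4.12. Tissue and library cannot be told apart here, since each tissue and treatment was 1 library.

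**Figure D1:**
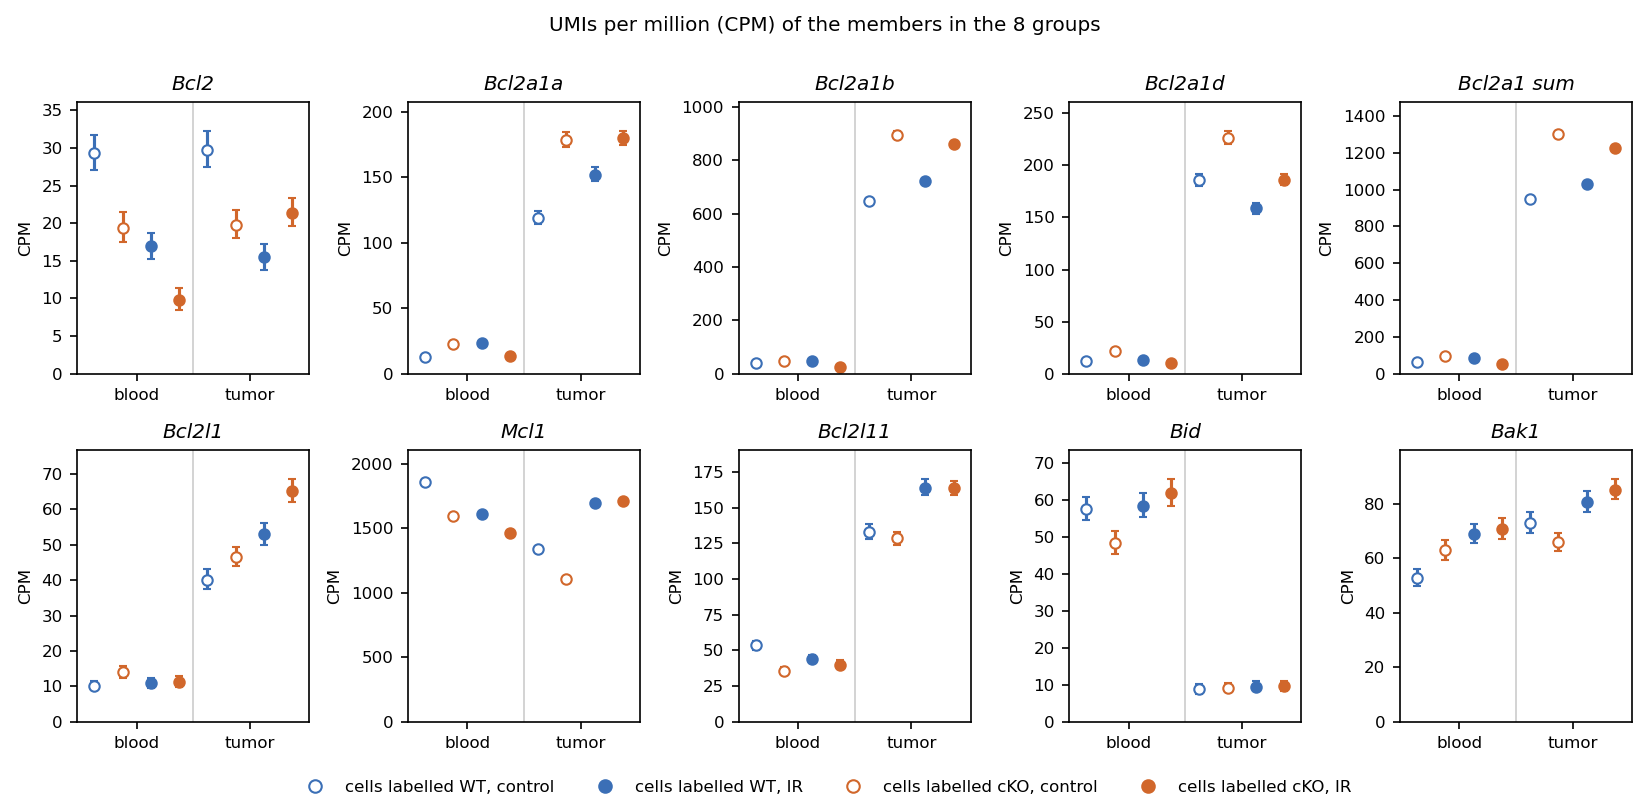
Each panel plots the level of a member (CPM, linear axis from 0) in the 8 groups, blood on the left and tumor on the right, with blue for cells labelled WT, orange for cells labelled cKO, open points for control and filled points for IR. Bars are exact Poisson 95% intervals of the counts. The summed Bcl2a1 copies lie between 50.8 and 94.1 CPM in blood and between 951 and 1302 CPM in tumors, whereas Bid lies between 48.5 and 62.0 CPM in blood and between 8.78 and 9.64 CPM in tumors.

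Bcl2l1, which encodes the survival protein BCL-XL, had the same direction at a lower level. It was at 40.2, 46.6, 53.0 and 65.2 CPM in WT control, cKO control, WT IR and cKO IR tumors and at 10.2, 14.1, 10.99 and 11.2 CPM in the same groups of blood. All tumor groups were higher than all blood groups, by 1.72 to 2.53 on the log2 scale in the 4 matched comparisons. Bcl2l11, the gene of the death activator BIM, was also higher in tumors. Its levels were 133, 128, 164.0 and 163.6 CPM in WT control, cKO control, WT IR and cKO IR tumors and 53.6, 35.8, 43.8 and 40.2 CPM in blood, with log2 ratios of 1.31 to 2.02.

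Bid ran the other way. This BH3-only gene, whose product is cut by caspase-8 downstream of death receptors, was at 57.7 CPM (54.5 to 61.0), 48.5 (45.5 to 51.8), 58.6 (55.4 to 61.8) and 62.0 (58.5 to 65.6) in WT control, cKO control, WT IR and cKO IR blood. In tumors it was at 8.78 CPM (7.54 to 10.2), 9.19 (8.01 to 10.5), 9.53 (8.24 to 10.97) and 9.64 (8.45 to 10.9) in the same order. The 4 tumor groups did not differ from each other beyond counting error. Bid was lower in tumor than in blood by log2 ratios of -2.71 (-2.95 to -2.49) in WT control, -2.39 (-2.62 to -2.19) in cKO control, -2.61 (-2.84 to -2.40) in WT IR and -2.68 (-2.89 to -2.48) in cKO IR.

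Mcl1, Bcl2 and Bak1 did not separate the tissues. Mcl1, whose protein is a short-lived survival factor, was at 1339, 1107, 1693 and 1709 CPM in WT control, cKO control, WT IR and cKO IR tumors and at 1859, 1592, 1611 and 1465 CPM in blood. Its tumor-to-blood log2 ratio was -0.47 and -0.52 in the control groups and 0.07 and 0.22 in the IR groups. Bak1, the effector, was at 73.1, 66.0, 80.7 and 85.2 CPM in tumors and at 52.9, 62.9, 69.1 and 70.9 CPM in blood, with ratios of 0.07 to 0.47. Bcl2 was at 29.7, 19.8, 15.5 and 21.4 CPM in tumors and at 29.3, 19.4, 17.0 and 9.86 CPM in blood.

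A gene was counted as past the limit where its log2 ratio was at least 1 in size and it had at least 100 UMIs over both groups. Between tumor and blood, 6 of 9 members passed in WT control, where 35.4% of the 10400 genes measured that deeply did. The count was 6 of 9 in cKO control (43.8% of genes), 6 of 9 in WT IR (32.3%) and 7 of 9 in cKO IR (32.1%). The 5 higher members in the first 3 comparisons were Bcl2a1a, Bcl2a1b, Bcl2a1d, Bcl2l1 and Bcl2l11, joined in cKO IR by Bcl2 (1.116, 0.88 to 1.37), and Bid was the lower one each time. The median over the 9 members was 1.31, 1.72, 1.90 and 2.02 in these comparisons, beside 0.11, 0.23, -0.08 and -0.10 over all genes measured. Of the 6 survival members, 4 or 5 were higher and none lower. Among the higher ones, 3 were the near-identical Bcl2a1 copies, which can share reads and are not separate observations in these counts and medians. The others were Bcl2l1 and, in cKO IR, Bcl2. Of the 3 death members, 1 was higher and 1 lower each time. Of all genes measured, 2059 of 10400 were higher past the limit and 1618 lower in WT control. The counts were 2942 and 1775 of 10765 in cKO control. They were 1606 and 1673 of 10141 in WT IR and 1585 and 1649 of 10080 in cKO IR.

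**Figure D2:**
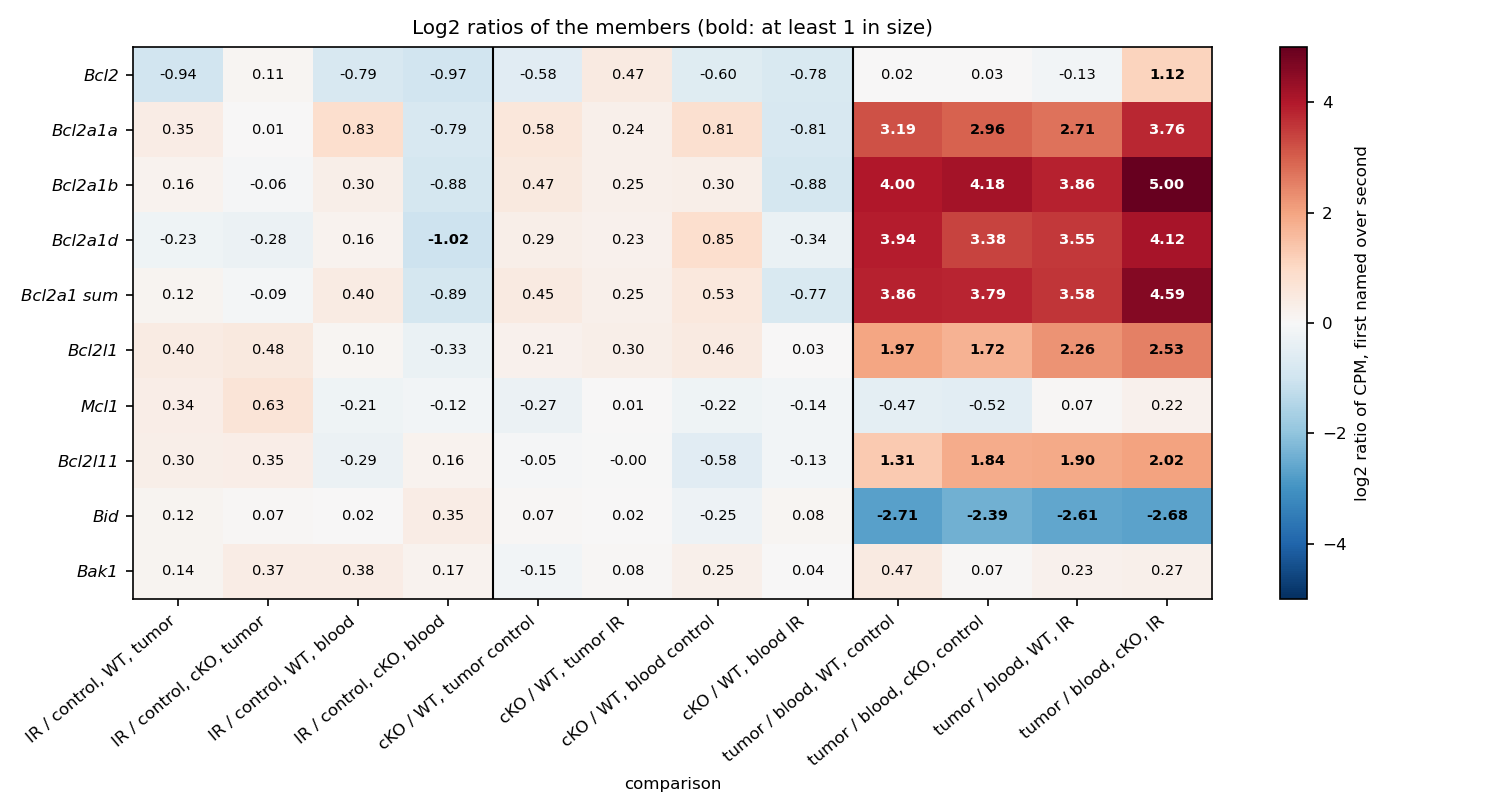
The grid gives the log2 ratio of CPM of each member (rows) in each of the 12 comparisons (columns), colored from blue for lower to red for higher in the first-named group, with ratios of at least 1 in size in bold. The 4 columns on the right, tumor over blood, hold nearly all of the bold values, from -2.71 for Bid to 4.996 for Bcl2a1b, and the 8 columns for IR and genotype hold 1, Bcl2a1d in cKO blood at -1.02.

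Levels differed by class of cells, and each member had its own distribution. The summed Bcl2a1 copies were highest in macrophage-like cells (1709 CPM), dendritic cell-like cells (1376) and an unnamed tumor cluster led by Mmp13, Hspa1a and Cxcl3 (cluster 5, 1284), and lowest in fibroblast-like cells (12.1) and B cell-like cells (16.8). Among dendritic cell-like cells the sum reached 4504 CPM (4368 to 4643) in a tumor cluster of 144 cells led by Ccl22, Ccr7 and Fscn1, genes of mature migratory dendritic cells, and stood at 20.0 CPM (15.0 to 26.1) in a blood cluster of 231 cells led by Cd209a and Cd7. RNA outside cells was measured in barcodes too small to be cells, where the sum was 1126 and 1001 CPM in the tumor control and IR libraries and 62.4 and 52.1 CPM in blood control and IR. Fibroblast-like cells of the tumors held 12.1 CPM (10.3 to 14.0) at a median depth of 26165 UMIs. That value sets no bound on free RNA in shallower cells, and the part of free RNA in the levels was not tested. After every cell was thinned to 1500 UMIs, a UMI of these copies was found in 80.1% of macrophage-like cells and in 2.36% of fibroblast-like cells, against 95.4% and 12.2% without thinning, with median depths of 8708.5 and 26165 UMIs.

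**Figure D3:**
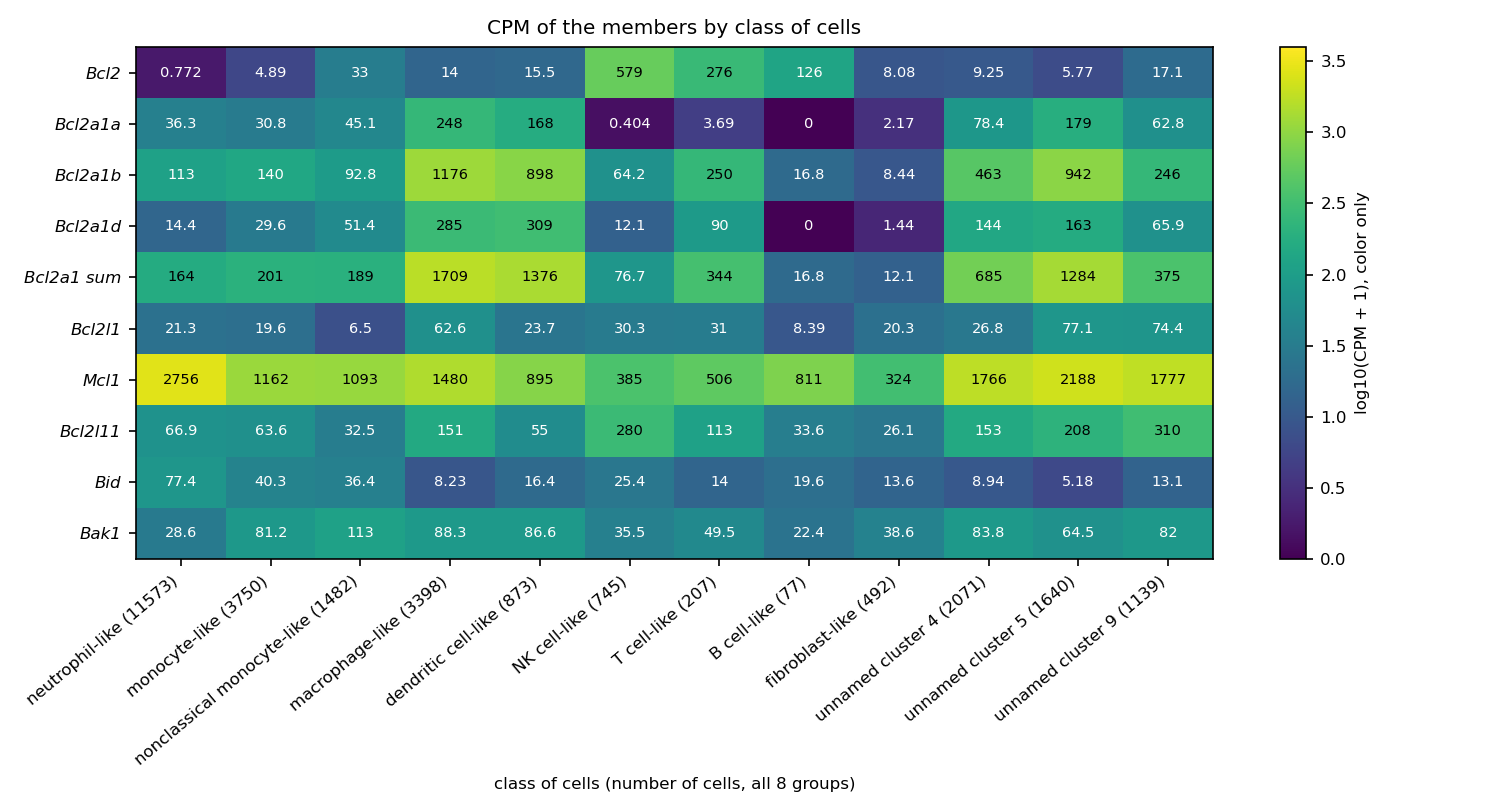
The grid gives the level in CPM of each member (rows) in each class of cells over all 8 groups (columns, with the number of cells), with color on a log10(CPM + 1) scale. The levels of a row may be compared, and those of different rows may not, since genes differ in how well they are captured. Bcl2 peaks in NK cell-like cells at 579 CPM, Mcl1 in neutrophil-like cells at 2756 CPM, Bid in neutrophil-like cells at 77.4 CPM and the summed Bcl2a1 copies in macrophage-like cells at 1709 CPM.

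Bcl2, the founding survival gene of the family and well known in lymphocytes, was at 579 CPM (549 to 610) in NK cell-like cells, 276 (249 to 306) in T cell-like cells and 126 (91.8 to 168) in B cell-like cells. In neutrophil-like cells it was at 0.772 CPM (0.500 to 1.14), from 25 UMIs in 11573 cells. Monocyte-like cells held 4.89 CPM, and nonclassical monocyte-like cells, with 33.0 CPM (30.2 to 36.0), the most among the myeloid classes. Thinned to 1500 UMIs, 53.5% of NK cell-like and 0.116% of neutrophil-like cells had a Bcl2 UMI, and without thinning 75.6% and 0.207% did, with median depths of 3007 and 2571 UMIs.

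Mcl1 was highest in neutrophil-like cells, at 2756 CPM, followed by cluster 5 at 2188, and lowest in fibroblast-like cells (324) and NK cell-like cells (385). Bid had a narrower peak, with 77.4 CPM (74.4 to 80.5) in neutrophil-like, 40.3 in monocyte-like, 36.4 in nonclassical monocyte-like and 8.23 (7.27 to 9.28) in macrophage-like cells. Bcl2l11 was at 280 CPM (259 to 301.4) in NK cell-like cells and 310 (286 to 336) in the unnamed cluster 9, whose cells were shallow and led by Gm26917, Gm42418 and mitochondrial transcripts. Bak1 was highest in nonclassical monocyte-like cells (113.4 CPM, 108 to 119) and at 28.6 (26.8 to 30.5) in neutrophil-like cells. Bcl2l1 ran from 6.50 CPM in nonclassical monocyte-like cells to 62.6 in macrophage-like cells and 77.1 in cluster 5.

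The tissue differences were also present within classes that both tissues held. There the class name is the same, but the clusters and their raised markers are not. Neutrophil-like cells of IR tumors were nearly all of cluster 12 (322 of 326 WT cells and 242 of 243 cKO cells), whereas those of blood were, but for 1 cell, of clusters 0, 1, 7, 13 and 19. In these cells the Bcl2a1 sum was at 2307 and 1904 CPM in WT and cKO IR tumors and at 122 and 82.6 CPM in WT and cKO IR blood, a log2 ratio of 4.24 (4.13 to 4.36) and 4.52 (4.37 to 4.68). Bid was at 18.5 and 28.1 CPM in WT and cKO IR tumors, from 12 and 13 UMIs, and at 80.9 and 92.1 CPM in blood, lower in tumors by -2.11 (-3.09 to -1.31) and -1.71 (-2.63 to -0.93). Bcl2l1 was higher in the tumor cells by 2.61 and 3.03, Bcl2l11 by 2.45 and 2.67, and Mcl1 by 0.47 and 0.43. The 13 neutrophil markers summed to 56006 and 58457 CPM in the tumor cells and 183729 and 201437 CPM in the blood cells of these groups, and the 14 macrophage markers to 3670 and 5142 CPM against 422 and 521 CPM. Their part in the result was not tested.

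Monocyte-like cells after IR gave the same directions, with cluster 3 in blood and cluster 8, led by interferon-induced genes such as Ifit2 and Rsad2, in tumors. Of the 10 monocyte markers, 7 were raised in cluster 3 and 3 in cluster 8, and their part in the result was not tested. The Bcl2a1 sum was at 843 and 961 CPM in WT and cKO tumors and at 10.3 and 8.00 CPM in WT and cKO blood, log2 ratios of 6.34 (6.06 to 6.67) and 6.88 (6.56 to 7.28). Blood monocyte-like cells held 95 and 67 UMIs of the 3 copies among 727 and 629 cells, below the level in the free RNA of that library. Mcl1 was at 2035 and 1877 CPM in the tumor cells against 894 and 827 CPM in blood, 1.19 and 1.18 higher on the log2 scale, a difference that the whole groups did not show. Bid was lower in the tumor cells by -2.11 and -2.12, while Bcl2l1 was higher by 2.90 and 3.096 and Bcl2l11 by 2.64 and 2.34. In NK cell-like cells Bcl2l11 was also higher in tumors, by 2.54 (2.15 to 3.01) in WT control, 2.996 (2.23 to 4.09) in cKO control and 2.21 (1.68 to 2.83) in WT IR.

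Of the 6 neutrophil-like clusters, 19, 13, 1 and 0 are listed first, by their Mcl1 level, so the rise of Mcl1 is set by the listing. Bid, Bcl2l11 and the Bcl2a1 sum rose in that order over these 4. Over all 6 clusters Bid did not, since clusters 7 and 12 fell out of the order. Bcl2l1 and Bak1 did not rise in that order over the 4. Clusters 19 and 13 came mostly from 1 pool, cKO control blood, with 62 of 93 and 428 of 520 cells. Cluster 19 is led by Ltf, Ngp and Camp, genes of the specific granules that are filled early in neutrophil maturation, and cluster 13 still has Ngp and Ly6g among its leading genes. Mcl1 was at 656 CPM (601 to 714) in cluster 19, 1804 (1749 to 1861) in cluster 13, 2595 (2566 to 2624) in cluster 1 and 3115 (3084 to 3146) in cluster 0. Bid was at 20.9 CPM (12.2 to 33.4), 44.5 (36.2 to 54.1), 78.9 (73.9 to 84.1) and 85.4 (80.4 to 90.6) in the same order, and Bcl2l11 at 11.1, 21.8, 45.4 and 71.9 CPM. The Bcl2a1 sum was at 14.7, 23.6, 60.6 and 133 CPM there. In cluster 19 Bcl2l11 rested on 9 UMIs (5.05 to 21.0 CPM) and the sum on 12 (7.61 to 25.7). These intervals overlap those of cluster 13 (16.1 to 28.8 and 17.7 to 30.9). Bcl2l1 was highest in cluster 13 and lower again in cluster 0, at 14.7, 27.6, 21.0 and 12.6 CPM in clusters 19, 13, 1 and 0. Bak1 was lowest in cluster 13, at 24.6, 16.9, 24.6 and 33.9 CPM. Cluster 7, led by interferon-induced Ifit genes, lay between clusters 1 and 0 in Mcl1, at 2807 CPM (2752 to 2863). It held the highest Bid of the 6, at 96.9 CPM (86.9 to 108), beside 90.9 CPM of the Bcl2a1 sum.

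Cluster 12, the tumor cluster led by the chemokine genes Ccl3 and Ccl4 and by G0s2, stood apart, with 2101 CPM (2019 to 2185) of the Bcl2a1 sum, 120 CPM (101 to 141) of Bcl2l1, 342 CPM (309 to 377) of Bcl2l11, 3609 CPM (3502 to 3718) of Mcl1 and 21.0 CPM (13.6 to 31.0) of Bid. Its cells were shallow, with a median of 1909.5 UMIs, and 3 of 13 neutrophil markers were raised in it. Bak1 varied less over the 6 clusters, from 16.9 CPM in cluster 13 to 33.9 CPM in cluster 0. The clusters were formed without the BCL2 family genes, yet from the same cells, so these levels are a description.

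**Figure D4:**
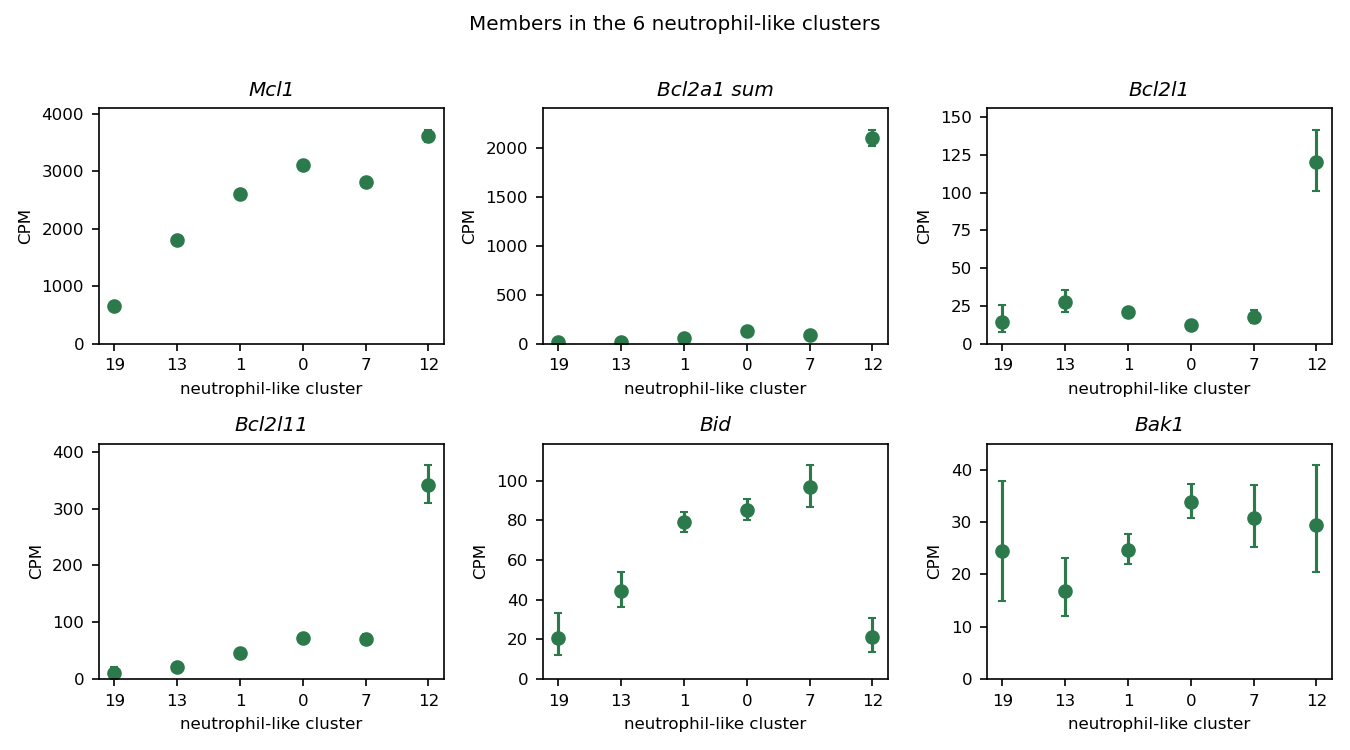
Panels plot the level (CPM, linear axes from 0) of Mcl1, the summed Bcl2a1 copies, Bcl2l1, Bcl2l11, Bid and Bak1 in the 6 neutrophil-like clusters, with exact Poisson 95% intervals. Mcl1 runs from 656 CPM in cluster 19 to 3609 CPM in cluster 12, while Bid runs from 20.9 CPM in cluster 19 to 96.9 CPM in cluster 7 and stands at 21.0 CPM in cluster 12.

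IR against control addresses whether irradiation of the tumor shifts survival and death genes in the sorted cells. In WT tumors no member passed the limit, where 5.73% of genes did. No member passed in cKO tumors either (22.3% of genes) or in WT blood (1.32%), and 1 of 9, Bcl2a1d, passed in cKO blood (1.4%). Mcl1 was higher after IR in tumors, by 0.34 (0.32 to 0.36) in WT and 0.63 (0.60 to 0.65) in cKO, and lower in blood, by -0.21 (-0.23 to -0.19) and -0.12 (-0.14 to -0.10). Bcl2l1 was higher after IR in WT and cKO tumors, by 0.40 (0.27 to 0.53) and 0.48 (0.37 to 0.59), and Bcl2l11 by 0.30 (0.23 to 0.37) and 0.35 (0.28 to 0.42). Bak1 was higher after IR in all 4 comparisons, by 0.14 to 0.38. The median over all genes was -0.13 in WT tumors and -0.18 in cKO tumors, and 0.03 and 0.07 in WT and cKO blood, while the median over the 9 members was 0.16 and 0.11 in WT and cKO tumors, 0.10 in WT blood and -0.33 in cKO blood. Cells with shares that moved between these groups included neutrophil-like cells, at 0.673% and 1.35% in WT and cKO control tumors and 10.5% and 6.45% after IR, and monocyte-like cells, at 1.35% and 0.840% in control and 17.9% and 15.9% in IR tumors. Cluster 5 went from 9.62% to 16.4% of WT and from 4.90% to 20.7% of cKO tumor cells after IR. Over all groups it held 2188 CPM of Mcl1, 77.1 CPM of Bcl2l1 and 208 CPM of Bcl2l11. The macrophage-like share of tumor cells was lower after IR in WT and in cKO. Fibroblast-like cells, lowest in Mcl1 (324 CPM), went from 4.59% to 2.54% of WT tumor cells after IR. In cKO tumors they went from 11.7% to 1.22%. They were deep, with a median of 26165 UMIs, so they weigh more in summed counts than in cell shares. The part of these shares in the group ratios was not tested. Within macrophage-like cells of tumors Mcl1 was at 1494 and 1373 CPM in WT and cKO control and at 1576 and 1595 CPM after IR. That class leaves out cluster 5, which was not named although 7 of 14 macrophage markers were raised in it. Cluster 10, with 1262 CPM of Mcl1 against 1557 in cluster 2, held 175 of 927 WT and 469 of 1063 cKO cells of that class in control tumors, and 43 of 573 and 61 of 829 after IR. Within cluster 2, Mcl1 was 0.06 (0.02 to 0.10) higher after IR in WT and 0.14 (0.10 to 0.18) in cKO.

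In blood the Bcl2a1 copies went opposite ways after IR in the labelled genotypes. The sum was higher after IR by 0.40 (0.30 to 0.50) in WT, and lower by -0.89 (-1.004 to -0.78) in cKO. Bcl2a1a went from 13.02 to 23.2 CPM in WT and from 22.9 to 13.2 CPM in cKO, and Bcl2a1d from 21.7 to 10.7 CPM in cKO, a log2 ratio of -1.02 (-1.28 to -0.78). In cKO against WT the sum was higher by 0.53 (0.42 to 0.63) in control blood and lower by -0.77 (-0.88 to -0.65) in IR blood. These 4 ratios share their groups and are not separate observations. The difference between the genotypes was not tested, since each group is 1 pool. Nonclassical monocyte-like cells went from 8.56% to 6.63% of WT blood cells after IR and from 14.4% to 7.58% of cKO blood cells. They held 39.6% and 39.7% of the Bcl2a1 UMIs of WT control and IR blood, and 70.7% and 33.0% of those of cKO control and IR blood. The part of these shares in the group ratios was not tested.

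Among blood classes, nonclassical monocyte-like cells gave the same signs as the whole blood and neutrophil-like cells did not. Nonclassical monocytes patrol vessels and, in mice, are marked by Nr4a1, Ace and Treml4. In them the Bcl2a1 sum was at 148 CPM in WT control, 241 in cKO control, 226 in WT IR and 103 in cKO IR, from 557, 1276, 763 and 316 UMIs in 396, 545, 272 and 256 cells. The WT control and cKO IR groups were low, and the other 2 high. IR over control was 0.61 (0.45 to 0.77) for WT and -1.23 (-1.41 to -1.05) for cKO, and cKO over WT was 0.71 (0.56 to 0.85) in control and -1.13 (-1.33 to -0.95) in IR blood. At a finer clustering (resolution 1.2) these ratios of Bcl2a1a+Bcl2a1b+Bcl2a1d kept their signs, but those of cKO IR were no longer past the limit (-0.82 against cKO control and -0.68 against WT IR). Bcl2a1b was at 75.7, 119.6, 112.6 and 40.4 CPM in WT control, cKO control, WT IR and cKO IR, and Bcl2a1a at 29.8, 57.3, 59.9 and 25.7 CPM. The other members moved less there: Mcl1 was at 1166, 1089, 1140 and 959.9 CPM and Bak1 at 101, 116, 119 and 118 CPM, while Bcl2 was at 35.1, 35.0, 37.0 and 22.1 CPM.

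The marker content of that class differed between the 4 groups as well. The 10 nonclassical monocyte markers, none at 0, summed to 3723, 3654, 3466 and 2626 CPM in WT control, cKO control, WT IR and cKO IR, and the 10 monocyte markers, none at 0, to 8683, 9593, 10981 and 12235 CPM. The 13 neutrophil markers, of which 1 was at 0 in the WT groups, summed to 10601, 5202, 8602 and 4238 CPM. Their part in the result was not tested. In neutrophil-like cells the Bcl2a1 sum was at 90.1, 56.4, 122 and 82.6 CPM in the same order: IR over control was 0.44 (0.30 to 0.57) for WT and 0.55 (0.37 to 0.74) for cKO, and cKO over WT was -0.67 (-0.85 to -0.50) in control and -0.56 (-0.71 to -0.41) in IR blood. Clusters 13 and 19, low in Bcl2a1, held 38 of 3120 neutrophil-like cells in WT control blood and 490 of 2534 in cKO control blood. Their part was not tested. Monocyte-like cells had the signs of the nonclassical class at a low level, 8.00 to 12.8 CPM in the 4 blood groups. IR over control was 0.29 (-0.19 to 0.79) for WT and -0.67 (-1.19 to -0.17) for cKO, and cKO over WT was 0.60 (0.08 to 1.14) in control and -0.36 (-0.84 to 0.10) in IR blood.

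**Figure D5:**
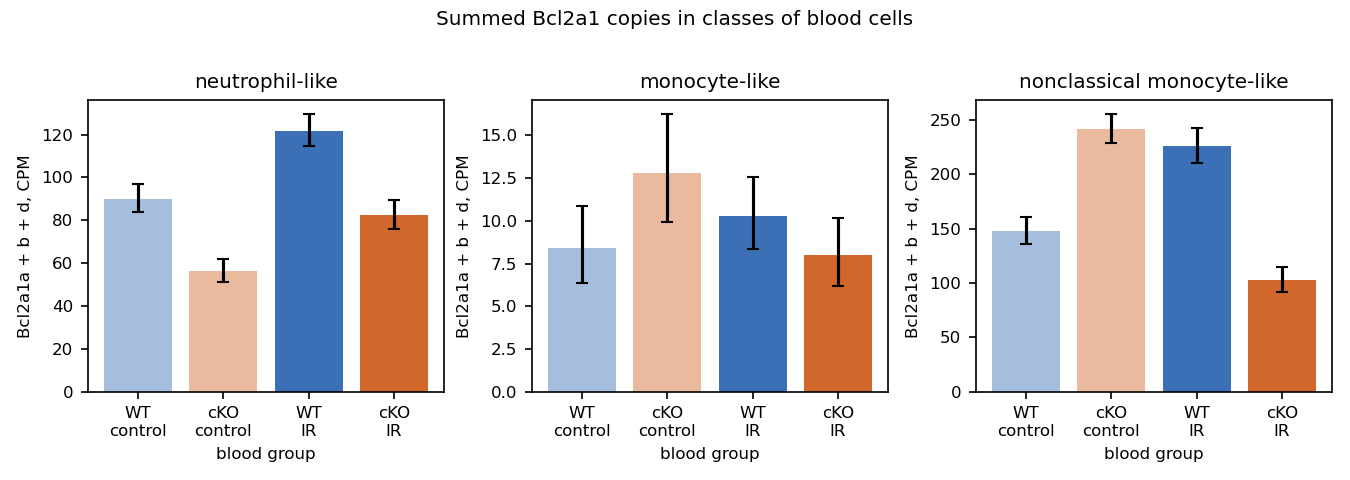
Bars give the summed level of Bcl2a1a, Bcl2a1b and Bcl2a1d (CPM, axes from 0 on a different scale in each panel) in neutrophil-like, monocyte-like and nonclassical monocyte-like blood cells of the 4 blood groups, with exact Poisson 95% intervals. In nonclassical monocyte-like cells the order is cKO control (241 CPM), WT IR (226), WT control (148) and cKO IR (103), while in neutrophil-like cells both genotypes are higher after IR.

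The comparison of cKO with WT asks whether these genes differ between the labelled genotypes. Cells labelled cKO also carried Cre and had little Lyz2 RNA, and their Ythdf2 counts do not check the deletion. Loss of YTHDF2 cannot be told apart from these here. None of the 9 members passed the limit in tumor control (4.84% of genes did), tumor IR (1.25%), blood control (2.21%) or blood IR (0.633%). The Bcl2a1 sum was higher in cKO tumors by 0.45 (0.43 to 0.48) in control and 0.25 (0.22 to 0.27) in IR, and by 0.53 (0.50 to 0.56) and 0.11 (0.06 to 0.15) within macrophage-like cells. With WT also held to a 4-fold hashtag margin, 1001 of 2526 WT cells of control tumors were left. In control tumors Bcl2a1d and Bcl2l1 then stood at -0.01 and -0.09 in place of 0.29 and 0.21. The macrophage-like share of control tumor cells was 36.7% in WT and 49.6% in cKO, and the macrophage markers summed within them to 13256 and 17818 CPM, whose part was not tested. The class divides between clusters 2 and 10 in different proportions, and in control tumors the Bcl2a1 sum was higher in cKO by 0.64 (0.60 to 0.68) within cluster 2 and by 0.46 (0.39 to 0.52) within cluster 10. A larger difference was measured in cluster 4, a tumor cluster that could not be named by markers and is led by Adora2b, Nrg1 and Havcr2. Its Bcl2a1 sum was at 609 CPM in WT control, 1371 in cKO control, 497 in WT IR and 574 in cKO IR, so that cKO control alone was high, with cKO over WT at 1.17 (1.09 to 1.25) in control and 0.21 (0.12 to 0.30) in IR. Mcl1 was lower in cKO in tumor control by -0.27 (-0.30 to -0.25) and in blood control by -0.22 (-0.25 to -0.20). In tumor IR it did not differ beyond counting error (0.01, -0.01 to 0.03). Fibroblast-like cells, with 324 CPM of Mcl1, made up 4.59% of WT and 11.7% of cKO control tumor cells, and their part was not tested. Bcl2l11 was lower in cKO control blood by -0.58 (-0.72 to -0.44), and by -0.93 (-1.15 to -0.73) within its neutrophil-like cells, where it was at 69.3 CPM in WT and 36.2 in cKO. Bcl2l1 was at 12.6 and 24.1 CPM in the same cells, 0.93 higher in cKO (0.58 to 1.29). These neutrophil-like cells lay in different clusters: 1934 of the 3120 WT cells but 812 of the 2534 cKO cells were in cluster 0, and clusters 13 and 19, with low Bcl2l11, held 38 and 490. Within cluster 0, Bcl2l11 differed by -0.74 (-1.10 to -0.41) and Bcl2l1 by 0.47 (-0.22 to 1.15). Within cluster 1 the ratios were -0.27 (-0.64 to 0.09) for Bcl2l11 and 0.95 (0.42 to 1.54) for Bcl2l1.

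Bcl2 needs its lymphoid source set beside it. NK, T and B cell-like cells made up 1.51% to 6.69% of the cells of a group and held 39.2% to 65.6% of its Bcl2 UMIs. Bcl2 was lower after IR by -0.94 (-1.14 to -0.74) in WT tumors, -0.79 (-0.98 to -0.60) in WT blood and -0.97 (-1.24 to -0.72) in cKO blood, and not in cKO tumors (0.11, -0.07 to 0.29). The 7 NK cell markers, none at 0, summed to 555 and 250 CPM in WT tumors before and after IR, 203 and 357 in cKO tumors, 840.0 and 501 in WT blood and 248 and 254 in cKO blood. Without the lymphoid-like cells, Bcl2 after IR differed by -0.54 (-0.85 to -0.25) in WT tumors, -0.39 (-0.65 to -0.13) in cKO tumors, -0.29 (-0.58 to -0.01) in WT blood and -1.06 (-1.42 to -0.73) in cKO blood. In the latter cells Bcl2 went from 12.04 to 5.73 CPM. Within NK cell-like cells of tumors Bcl2 was 0.43 higher after IR in both genotypes.

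Of the 35 other BCL2 family and apoptosis genes, few passed the limit with IR or genotype. In cKO tumors after IR they were Bok, an effector-like family member, and Casp8, which encodes the caspase that cuts BID. Bok was at 38.0 CPM in control and 7.09 CPM after IR, a log2 ratio of -2.42 (-2.66 to -2.19). Bok was also higher in cKO than in WT control tumors, by 1.09 (0.91 to 1.27), from 17.9 CPM, and had no UMI in any blood group. The 7 fibroblast markers, of which at most 1 was at 0 in a tumor group, summed to 719, 1222, 420 and 209 CPM in WT control, cKO control, WT IR and cKO IR tumors, and their part in the Bok values was not tested. Casp8 went from 54.8 to 115 CPM in cKO tumors, a ratio of 1.07 (0.97 to 1.16), and from 62.9 to 109.6 CPM in WT tumors. Tnfrsf10b, a death receptor gene, was higher in cKO than in WT control tumors by 1.05 (0.45 to 1.72), at 3.205 and 1.53 CPM. No gene of these lists passed in the other 6 comparisons of IR or genotype.

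By list, the medians in cKO tumors after IR were 0.31 over the 10 genes of the apoptosome and caspases, 0.35 over the 4 caspase inhibitors and 0.70 over the 3 measured death receptor and adaptor genes, beside -0.18 over all genes. They were 0.15 over the 4 measured BH3-only genes, -0.09 over the 5 measured family-related genes, -0.19 over the 2 measured survival genes and -1.04 over the 2 effectors, Bax and Bok. In WT tumors the lists of the apoptosome, the inhibitors and the receptors had medians of 0.17, 0.24 and 0.17, beside -0.13 over all genes. The 2 genes past the limit in cKO tumors, Bok and Casp8, stand beside 22.3% of all genes there. Bax, the partner effector of BAK, was at 189 to 238 CPM in tumors and 113.4 to 149 CPM in blood. The stress-induced BH3-only gene Pmaip1 (NOXA) was at 21.1 to 41.3 CPM in tumors and at 43.7 to 46.0 CPM in blood. Bax and Pmaip1 are given after their values were seen.

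Across 43 pools, each of 1 group and 1 class with at least 100 cells, the 3 Bcl2a1 copies had Pearson correlations of 0.93 to 0.95 with each other on the log2(CPM + 5) scale. Bid ran against Bcl2a1d (-0.75) and Bcl2a1b (-0.71), and Bcl2 against Mcl1 (-0.69). These pools share libraries and classes, and near-identical copies can share reads, so the values are descriptions. The genes most like each member over the pools were Nkg7, Ctsw and Il2rb for Bcl2 (0.89 to 0.90), Clec4n, Cd274 and Basp1 for Bcl2a1a and Bcl2a1b (0.86 to 0.92), and Cd83, H2-Eb1 and Cxcl16 for Bcl2a1d (0.85 to 0.86). They were Rabgef1, Cd164 and Ccl4 for Bcl2l1 (0.89 to 0.90), Ccr1, Clec4d and Rnf149 for Mcl1 (0.93 to 0.95), and Tnfaip3, Pde4d and Ccl4 for Bcl2l11 (0.88 to 0.89). For Bid they were Il16, Sephs2 and Ypel3 (0.91 to 0.95), and for Bak1 H2-DMa, Ly86 and Tep1 (0.89 to 0.90).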

How the data were processed

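The authors deposited, for each library, unfiltered UMI counts per gene, with hashtag counts as further features. According to the submitters' notes they used Cell Ranger 6.0.1 and Seurat 4.0.6 on mm10, and the file header names another Cell Ranger version. Here cells were called on at least 500 UMIs by an order-of-magnitude threshold or by difference from the ambient profile, with at least 200 genes and at most 25% mitochondrial UMIs. Scrublet marked almost no doublets automatically, so the 6% of barcodes with the highest score were removed per library (scanpy 1.11.5). Clusters were made with Seurat 5.3.0 (2000 variable genes without BCL2 family genes, Ythdf2, Lyz1 and Lyz2, 40 components, resolution 0.8) and named where at least 3 of a class's markers were raised. Of 21 clusters, 18 were named. Counts were summed per group and class and given as CPM, with exact Poisson intervals. Log2 ratios had 1 UMI, scaled to depth, added to each sum and carry exact conditional binomial intervals. Shares have Clopper-Pearson intervals. Classes with under 50 cells in a group were not compared. No test was run, as each group is 1 pool. TMM factors came from edgeR 4.0.16. All 9 members were named; of the other listed genes, those past the limit with IR or genotype (at most 4 a comparison), and for each member the 3 most correlated genes. Members and lists were chosen with earlier results of these data known. RefSeq promoters (250 bases before to 50 after the start) matched 9 of 9 members.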

Additional observations from a re-analysis of the deposited data

Results flagged for a closer look

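In nonclassical monocyte-like blood cells the Bcl2a1 copies had opposite ratios in the labelled genotypes, and this difference was not tested. For the sum of the copies, IR over control was 0.61 on the log2 scale in WT and -1.23 in cKO, and cKO over WT was 0.71 in control and -1.13 in IR. For Bcl2a1a the 4 ratios were 1.002, -1.15, 0.94 and -1.21 in the same order, and for Bcl2a1b they were 0.57, -1.56, 0.66 and -1.47. The 4 ratios of a gene rest on the same 4 pools of mice, and the spread between mice is unknown.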

How the results depend on the processing

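Settings were changed singly: cell calling, hashtag margin and minimum, doublet removal, mitochondrial share, TMM scaling and the UMI minimum. In a setting chosen after seeing the data, barcodes shared by kept cells of different libraries were left out. The count of members past the limit changed in 2 of 12 comparisons. After IR in cKO blood it was 2 in place of 1 with every barcode of at least 500 UMIs, with no removal by Scrublet score and with TMM factors, where Bcl2 just passed the limit, reaching -1.04 with TMM. In cKO against WT control blood it was 1 in place of 0 with a 4-fold hashtag margin both ways, where Bcl2a1d reached 1.01. That margin left 1001 of 2526 WT cells in control tumors and moved ratios by up to 0.51; Bcl2a1d and Bcl2l1 in cKO against WT control tumors then stood at -0.01 and -0.09 in place of 0.29 and 0.21. TMM moved ratios by up to 0.21 and the other settings by at most 0.09. Of 120 group ratios, 9 not past the limit changed sign with TMM, 5 with the margin, and 1 or 2 with every barcode, without Scrublet removal or without shared barcodes. Of the 48 class ratios past the limit, 45 stayed past it when clustered with all genes and 39 at resolution 1.2, and 25 of the 25 that could be formed at resolution 0.4 did, where no nonclassical monocyte-like class was found. In nonclassical monocyte-like cells the ratios of the Bcl2a1 copies kept their signs with smaller sizes: for Bcl2a1a+Bcl2a1b+Bcl2a1d, IR over control in cKO was -0.82 at resolution 1.2 and -1.06 with all genes, and cKO over WT in IR blood -0.68 and -0.99, in place of -1.23 and -1.13. Shares of cells with a UMI moved with thinning, as given beside them. No paired analysis was possible because each group is 1 pool and no result comes from a test. Low counts limit Bid in tumors and Bcl2 in neutrophil-like cells, among other values.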
